A study of Mus musculus with 6 samples.

Results

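Receptors for the cytokines that drive blood formation were followed through bone marrow cells sorted by their labelled Erg dose. The set holds 9 genes: Csf1r, Csf2ra, Csf2rb, Csf3r, Il3ra, Epor, Il6st, Il6ra and Il2rg. Its members are all probe sets that the probe table maps to these symbols alone, which gave 16 of the 45037 non-control probe sets on the array and covered 8 of the 9 genes. Il2rg, the gamma chain shared by the receptors for several interleukins, has no probe set by that symbol in the probe table and was not analysed here. The Erg-knockdown cells were YFP-negative LSK cells, with about 40% less Erg per the labels. The Erg-restored cells were YFP-positive LSK cells of the same animals, labelled as brought back to the wild-type level. All animals were adult Mx1Cre;Ergkd/+;R26Y mice on a mixed 129-B6 background, so the knockdown allele, the Cre transgene and the reporter are common to both populations. Mx1Cre is driven by an interferon-responsive promoter, and R26Y turns on yellow fluorescent protein where Cre has acted, so labelled Erg dose, Cre action and reporter state cannot be told apart. LSK names lineage-negative, Sca-1-positive, c-Kit-positive cells, the gate for stem and early progenitor cells. Each of 3 mice (278, 279 and 281) gave 1 array per population, 6 Affymetrix mouse genome arrays in all.

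Cytokine receptors of this kind set which growth factor a progenitor can answer. Most of those described here belong to the class I cytokine receptor family, which has no enzyme of its own and signals through JAK kinases and STAT transcription factors; Csf1r, the receptor for macrophage colony-stimulating factor, is instead a receptor tyrosine kinase. Ligand-specific chains such as Csf2ra, Il3ra and Il6ra pair with shared signalling chains such as Csf2rb and Il6st. Restriction of a stem cell to a lineage is commonly followed by these receptors: Csf1r marks the monocyte side, Csf3r the granulocyte side and Epor the erythroid side.

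None of the receptors passed the test for a difference between Erg-knockdown and Erg-restored cells. Csf1r, Csf3r and Il3ra read lower in the Erg-knockdown cells, by 0.40, 0.37 and 0.30 on the log2 scale at their brightest probe sets. Il6st and Il6ra read higher at their brightest probe sets, by 0.13 and 0.27, with the widest gap of both in mouse 279 and mixed signs over the mice. The remaining 3 of the 4 Il6st probe sets were higher in all 3 mice. Of these only 1437303_at was bright enough to be tested, with a difference of 0.31 and its widest gap in mouse 281. Epor read nearly the same. Csf2ra and Csf2rb went one way in mouse 279 and the other way in mouse 281. Of the 16 probe sets, 13 from all 8 genes had a mean intensity at or above 149, the median of all probe-set means, and entered the limma fit with the mouse as a block. 0 of these 13 passed a Benjamini-Hochberg adjusted p of 0.05 over 22519 probe sets, as did 0 (0%) of all probe sets tested. At unadjusted p below 0.05 there were 0 of 13, beside 1366 probe sets (6.07%) overall. The adjusted p of the 13 lay between 0.799 and 0.982. Differences are Erg-knockdown minus Erg-restored of log2(intensity + 16) with the standard error of that fit; 16 is added to each value, which understates the change of dim probe sets. Within the set, 7 of 13 fitted differences were below 0, beside 45.1% of all probe sets, and the median was -0.053, beside 0.020 over all. The background is the same array comparison, so the set is described here and not tested against it.

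**Figure D1:**
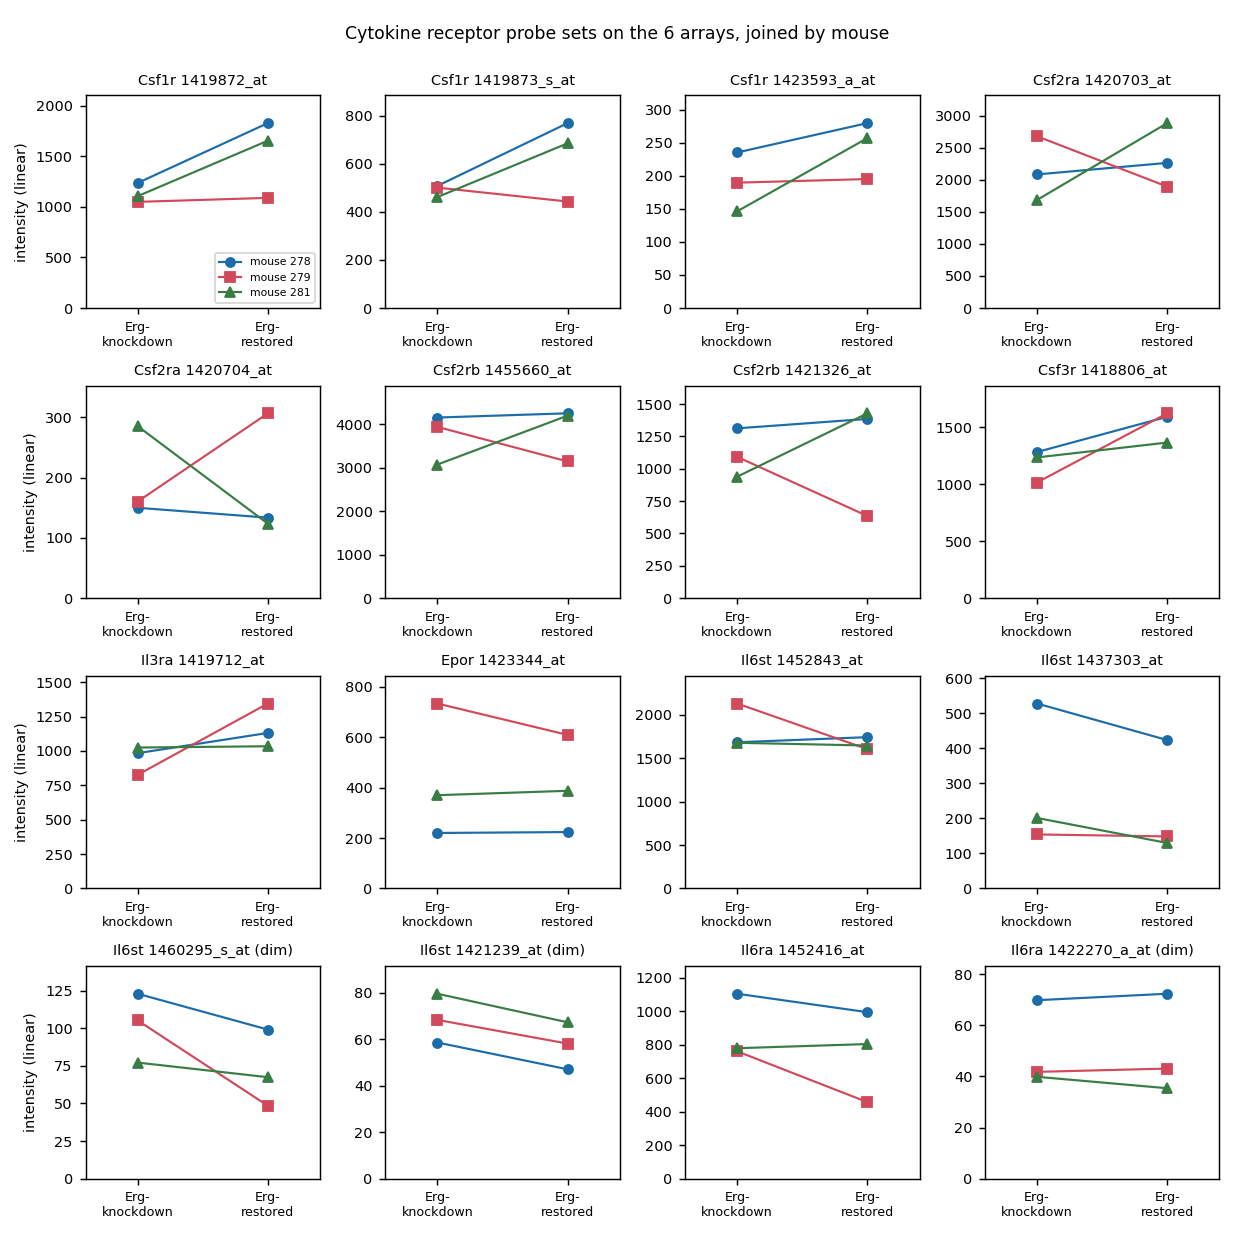
Intensity of each of the 16 receptor probe sets on the 6 arrays, on a linear axis from 0, with Erg-knockdown on the left, Erg-restored on the right and a line joining the arrays of 1 mouse. "Dim" marks the 3 probe sets whose mean lay below 149; the lines of Csf1r, Csf3r and Il3ra mostly climb to the right, those of Csf2ra and Csf2rb cross, and those of Epor lie in separate layers by mouse.

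Before the single genes, the arrays themselves need 1 description. The mean intensity was 1031 to 1071 per array and the median 135 to 157. The log2 ratio of 3′ to 5′ signal of the Gapdh and actin controls was 0.706 on the Erg-restored array of mouse 279, against 0.470 to 0.539 on the other 5. Erg itself did not show the labelled reduction. Its brighter probe set averaged 2810 ± 140 in Erg-knockdown cells and 2764 ± 124 in Erg-restored cells (SD, n = 3 each), a difference of 0.024 ± 0.089 (adjusted p = 0.954, limma). The dimmer probe set of Erg differed by -0.11 ± 0.088 (adjusted p = 0.818, limma). Kit, the c-Kit of the gate, read 5206, 5131 and 4670.1 at its brighter probe set in Erg-knockdown cells of mice 278, 279 and 281. In Erg-restored cells it read 4373.5, 3972 and 4572, so this probe set was bright on every array. The dimmer Kit probe set read 677, 762 and 622 in Erg-knockdown cells against 655, 385 and 582 in Erg-restored cells. Its difference in mouse 279 was 0.96. Ly6a, the gene of Sca-1, was not analysed here. In sorted populations such as these, fewer cells of a type and less RNA per cell cannot be told apart.

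Csf1r is the receptor for macrophage colony-stimulating factor and interleukin-34 and sustains monocytes and macrophages. Its brightest probe set, 1419872_at, read 1235, 1049 and 1105 in Erg-knockdown cells of mice 278, 279 and 281, against 1827, 1088 and 1653 in the Erg-restored cells of the same mice. The Erg-restored arrays of mice 278 and 281 stood above the rest, while that of mouse 279 lay level with the Erg-knockdown arrays, so the groups overlapped. The means were 1130 ± 95.7 in Erg-knockdown cells and 1523 ± 386 in Erg-restored cells (SD, n = 3 each), a log2 difference of -0.40 ± 0.15 (adjusted p = 0.799, limma; 95% interval -0.80 to 0.013). The single mice gave -0.56, -0.053 and -0.57. The other Csf1r probe sets had the same shape. 1419873_s_at read 508, 500.3 and 461 in Erg-knockdown cells against 769, 443 and 685 in Erg-restored cells. 1423593_a_at read 235, 189.7 and 146 in Erg-knockdown cells against 279.9, 195 and 257 in Erg-restored cells. Their differences were -0.32 ± 0.19 and -0.34 ± 0.17 (adjusted p = 0.799 for both, limma). All 3 probe sets of Csf1r were thus lower in Erg-knockdown cells of mice 278 and 281 by 0.24 to 0.75, and mouse 279 lay between -0.053 and 0.17. Without mouse 279 the differences were -0.57, -0.57 and -0.49 for 1419872_at, 1419873_s_at and 1423593_a_at. Without mouse 281 they were -0.31, -0.21 and -0.14, and without mouse 278 they were -0.31, -0.19 and -0.39. With only the Erg-restored array of mouse 279 left out and no term for the mouse, 1419872_at differed by -0.62.

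Macrophage markers are given beside Csf1r. Of 15 listed genes 14 had a probe set and 7 were above the filter. All 7 fitted differences were below 0, beside 45.1% of all probe sets tested, and their median was -0.25. An unadjusted p below 0.05 was found for 2, beside 6.07% of all probe sets in either direction. The same 2 were lower in all 3 mice, beside 10.4% of all probe sets. The list's medians were -0.32, 0.082 and -0.77 in mice 278, 279 and 281. Aif1, a macrophage calcium-binding protein gene, differed by -0.97 ± 0.17 and the complement gene C1qb by -1.39 ± 0.34 (adjusted p = 0.799 for both, limma). C1qb read 115, 214 and 116 in Erg-knockdown cells against 398, 908 and 169.9 in Erg-restored cells. The Erg-knockdown means of Aif1 and C1qb, 119 and 148, lay below the filter value of 149. Their Erg-restored means were 251 and 492, so both entered the fit through the group where they were high. The summed intensity of the list ran from 3809 to 6745.5 in Erg-knockdown cells and from 5589 to 6992 in Erg-restored cells, and no marker was listed at 0. The highest C1qb array, Erg-restored of mouse 279, had the lowest Csf1r reading of its group. The part of these markers in the Csf1r values was not tested.

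Csf3r, the receptor for granulocyte colony-stimulating factor, and Il3ra, the ligand-specific chain for interleukin-3, were the receptors whose groups did not overlap. Csf3r read 1282, 1015 and 1235 in Erg-knockdown cells of mice 278, 279 and 281, against 1591.5, 1622 and 1365 in Erg-restored cells. Every Erg-knockdown array lay below every Erg-restored array. The means were 1177 ± 143 in Erg-knockdown cells and 1526 ± 140.2 in Erg-restored cells (SD, n = 3 each), a difference of -0.37 ± 0.14 (0.772-fold; adjusted p = 0.799, limma; 95% interval -0.75 to 0.0081). Il3ra read 983, 826 and 1024 in Erg-knockdown cells, against 1131, 1344 and 1034 in Erg-restored cells. The gap between the groups is that between 1024 and 1034, both from mouse 281, so their separation rests on a difference of -0.013 in that mouse. The fit gave -0.30 ± 0.17 for Il3ra (adjusted p = 0.799, limma; 95% interval -0.76 to 0.16). An exact permutation of the signs of the mouse differences, two-sided, gave p = 0.25 for each of Csf3r and Il3ra, the smallest that 3 mice allow.

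Mouse 279 carried the widest gap for both receptors, -0.67 for Csf3r and -0.69 for Il3ra, and without it the differences were -0.23 and -0.11. In both genes the lowest array was Erg-knockdown of mouse 279 and the highest was Erg-restored of mouse 279, the array with the 3′ over 5′ ratio of 0.706. Leaving it out, with no term for the mouse, gave -0.33 for Csf3r and -0.20 for Il3ra. Csf3r and Il3ra followed each other over the 6 arrays (Pearson r = 0.935, arrays of shared mice and shared sample quality). Probe sets lower in Erg-knockdown cells without overlap made up 4.36% of all those tested and 2 of the 13 receptor probe sets; 0 of 13 were higher without overlap, beside 9.63% overall. Mature neutrophils carry much Csf3r, and the neutrophil list stood the other way in mouse 279. Its summed intensity (10 of 15 genes with a probe set, 8 above the filter) was 24276, 49467 and 28723 in Erg-knockdown cells against 23836, 16761 and 44677 in Erg-restored cells of the 3 mice. Csf3r was lowest on the array where this sum was highest, and highest where the sum was lowest. The single genes were not uniform. S100a8, S100a9, Lcn2 and Camp were lowest on the Erg-restored array of mouse 279. Ltf, Mmp8 and Mmp9 were lowest on the Erg-knockdown array of mouse 278 and Ngp on the Erg-restored array of that mouse. Mmp9 was highest on the Erg-restored array of mouse 281. Mast cell, basophil and eosinophil markers, cells that respond to interleukin-3, had 7 of 7 fitted differences below 0, beside 45.1% of all probe sets. The list's median was -0.28. Only 1 of the 7, the mast cell protease gene Cpa3, was lower in all 3 mice (-0.31 ± 0.11; adjusted p = 0.799, limma); the IgE receptor gene Ms4a2, next by unadjusted p, differed by -0.18 ± 0.17. The list's medians were -0.36, 0.16 and -0.13 in mice 278, 279 and 281, so in mouse 279, where Il3ra differed most, the list stood the other way. Their summed intensity ran from 6242 to 8974 in Erg-knockdown cells and from 7122 to 12983 in Erg-restored cells, with no marker listed at 0. The highest sum was that of the Erg-restored array of mouse 278. There the eosinophil list gene Prg2 read 3525, against 46.9 to 1227 on the other arrays. The part of either list in the receptor values was not tested.

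ERG binds DNA as an ETS factor, and the core letters of an ETS site are GGAA. The 250 bases before the RefSeq start (build GRCm38.p6) of Csf3r and Il3ra, the receptors whose groups did not overlap, are given here with GGAA on either strand in capitals.
Csf3r, chr4:126024409-126024658, plus strand: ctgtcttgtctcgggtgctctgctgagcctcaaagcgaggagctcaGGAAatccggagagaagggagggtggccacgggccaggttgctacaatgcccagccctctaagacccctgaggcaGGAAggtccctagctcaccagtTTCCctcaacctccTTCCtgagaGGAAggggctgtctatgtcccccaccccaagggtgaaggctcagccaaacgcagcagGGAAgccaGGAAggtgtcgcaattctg
Il3ra, chr14:14346245-14346494, plus strand: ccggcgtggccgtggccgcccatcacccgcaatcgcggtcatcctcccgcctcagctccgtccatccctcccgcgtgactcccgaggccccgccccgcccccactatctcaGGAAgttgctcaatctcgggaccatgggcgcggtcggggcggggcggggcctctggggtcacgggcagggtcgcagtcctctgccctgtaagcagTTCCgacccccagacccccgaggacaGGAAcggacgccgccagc
The Csf3r window held 7 GGAA cores and that of Il3ra 3. At least 1 GGAA is found in 93.4% of the 27025 promoter windows of this length, and at least 7 in 3.77%. The longer form GGAAGT, which contains the core, was present once in the Il3ra window, 139 bases before the start, and was absent from that of Csf3r; 20.0% of windows hold it on either strand. These counts describe letters in a window and not binding.

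Csf2ra and Csf2rb encode the ligand-specific and the shared chain of the receptor for granulocyte-macrophage colony-stimulating factor; Csf2rb also serves the interleukin-3 and interleukin-5 receptors. Csf2ra probe set 1420703_at read 2084, 2680.1 and 1686 in Erg-knockdown cells of mice 278, 279 and 281, against 2264, 1894 and 2886 in Erg-restored cells. The brighter Csf2rb probe set, 1455660_at, read 4159.9, 3945 and 3078 in Erg-knockdown cells against 4258, 3148 and 4204 in Erg-restored cells. The other, 1421326_at, read 1312, 1092 and 939 in Erg-knockdown cells against 1385, 635 and 1428 in Erg-restored cells. In each of these probe sets Erg-knockdown was higher in mouse 279, lower in mouse 281 and close to Erg-restored in mouse 278. The differences in mouse 279 were 0.50, 0.32 and 0.77 for the probe sets in this order, and in mouse 281 they were -0.77, -0.45 and -0.60. The fitted differences were -0.13 ± 0.27, -0.053 ± 0.18 and 0.031 ± 0.29 (adjusted p = 0.914, 0.948 and 0.982, limma). The intervals, -0.89 to 0.63 for Csf2ra and -0.55 to 0.45 for the brighter Csf2rb probe set, allow changes of either sign.

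The remaining Csf2ra probe set, 1420704_at, ran against the brighter one. It read 150.1, 160.5 and 286 in Erg-knockdown cells against 134, 307 and 124 in Erg-restored cells. It was high on the Erg-knockdown array of mouse 281 and the Erg-restored array of mouse 279, which were the lowest for 1420703_at, and the Pearson correlation of both probe sets over the 6 arrays was -0.81. Its fitted difference was 0.13 ± 0.42 (adjusted p = 0.945, limma). Which part of the transcript either reads was not analysed here, so for Csf2ra the direction within a mouse depends on the probe set.

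Csf2rb2 is a mouse paralog of Csf2rb that serves the interleukin-3 receptor, and it neighbours Csf2rb in the annotation with 1 gene between them, which is not protein-coding. Its probe set read 645, 564 and 276 in Erg-knockdown cells against 470.2, 400.5 and 385 in Erg-restored cells, a difference of 0.15 ± 0.23 (adjusted p = 0.884, limma). It shared the sign of Csf2rb in mice 279 (0.48) and 281 (-0.46), and stood at 0.44 in mouse 278. A probe set annotated to both genes, which is no member because its symbol is not unique, differed by -0.18 ± 0.10 and was lower in Erg-knockdown cells of all 3 mice. The genes are near-identical in sequence, so signal may be shared between their probe sets.

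The granulocyte and monocyte markers had the same crossed order as the brighter Csf2ra probe set and Csf2rb. Of 20 listed genes 18 had a probe set, and all 16 above the filter were higher in Erg-knockdown cells in mouse 279 and lower in mouse 281. Their medians were -0.069, 0.41 and -0.60 in mice 278, 279 and 281. Fcgr3, an Fc receptor gene of myeloid cells chosen here after its values were seen, read 2639, 3796 and 1565 in Erg-knockdown cells against 3359, 1399 and 4539.5 in Erg-restored cells. The summed intensity of the list was 71762 to 95324 in Erg-knockdown cells and 75450.2 to 98966 in Erg-restored cells, and no marker was listed at 0. Among the receptor probe sets 6 of 13 were higher in mouse 279 and lower in mouse 281, beside 20.0% of all probe sets. The part of the myeloid markers in the Csf2ra and Csf2rb values was not tested.

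The promoter window of Csf2ra, whose brighter probe set followed the myeloid markers, is given in the same form.
Csf2ra, chr19:61228419-61228668, minus strand: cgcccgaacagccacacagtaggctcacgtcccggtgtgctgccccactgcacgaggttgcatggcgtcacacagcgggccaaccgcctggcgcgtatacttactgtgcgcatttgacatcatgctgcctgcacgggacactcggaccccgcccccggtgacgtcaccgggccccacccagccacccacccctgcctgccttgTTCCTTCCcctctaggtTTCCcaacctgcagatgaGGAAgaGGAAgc
It held 5 GGAA cores, a number reached by 18.05% of windows, and no GGAAGT.

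**Figure D2:**
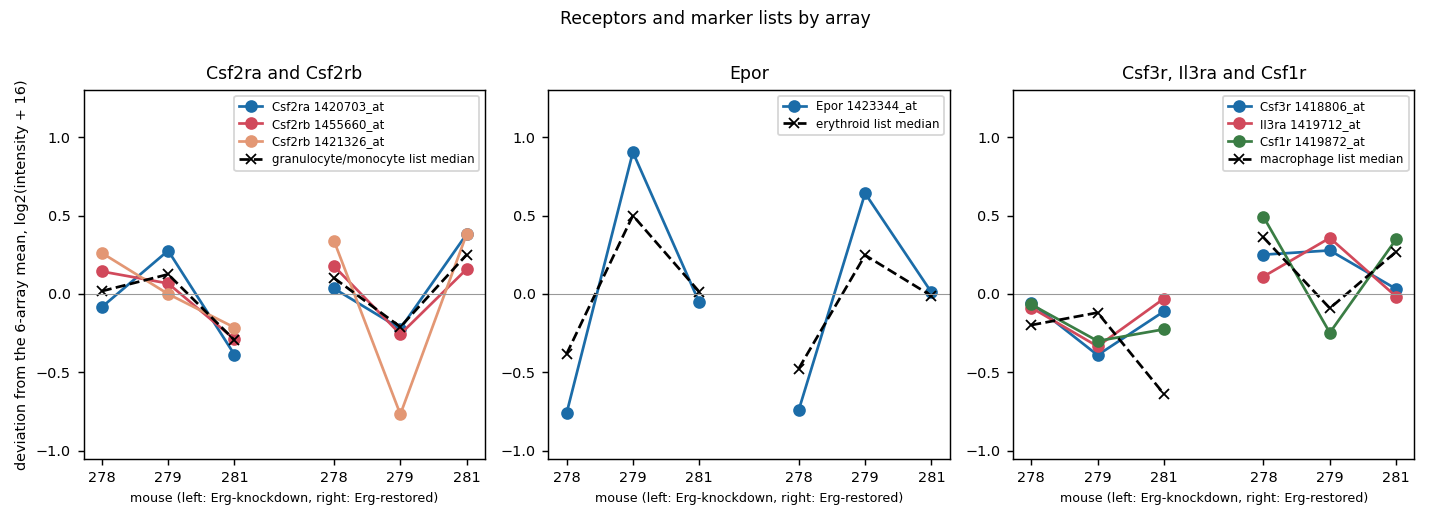
Deviation of each array from the 6-array mean of a probe set, on the log2(intensity + 16) scale, with the Erg-knockdown arrays of mice 278, 279 and 281 on the left of each panel and the Erg-restored arrays on the right; dashed lines give the median deviation of a marker list. The brighter Csf2ra probe set and both of Csf2rb are low on the Erg-knockdown array of mouse 281 and the Erg-restored array of mouse 279 together with the granulocyte and monocyte list, Epor is highest in mouse 279 in both populations, and Csf3r and Il3ra lie below 0 on all Erg-knockdown arrays.

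Epor, the erythropoietin receptor, differed between mice far more than between populations. It read 220.1, 734 and 370.1 in Erg-knockdown cells of mice 278, 279 and 281, against 224, 609 and 387 in Erg-restored cells. Both arrays of a mouse lay close to each other, and the order of the mice, 278 lowest and 279 highest, was the same in both populations. Between-mouse variation made up 98.5% of the sum of squares of Epor on the log2 scale, beside a median of 35.0% over all probe sets, and 0.160% of probe sets had a larger share. The difference between the populations was 0.059 ± 0.11 (adjusted p = 0.90, limma), with an interval from -0.24 to 0.36 that leaves room for a change of up to 0.36. The mice gave -0.022, 0.26 and -0.063. The summed intensity of the erythroid markers had the same order of mice. Over 15 of 19 genes with a probe set it was 34412, 53994 and 41752 in Erg-knockdown cells and 33848, 48166 and 41739 in Erg-restored cells, with no marker listed at 0. Not every marker had that order: Nfe2 in Erg-knockdown cells and Tfrc in Erg-restored cells, named after their values were seen, did not. Between the populations 7 of 10 tested erythroid markers were above 0, with a median of 0.051; the beta-globin gene Hbb-b2, which has near-identical paralogs, differed by -0.39 ± 0.084 and the carbonic anhydrase gene Car1 by 0.25 ± 0.11 (adjusted p = 0.799 for both, limma). The part of the erythroid markers in the Epor values was not tested. The labels give no age beyond adult, litter or date that would set the mice apart.

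Il6st encodes gp130, the signalling chain shared by the receptors for interleukin-6, leukemia inhibitory factor and related cytokines, and Il6ra encodes the chain specific for interleukin-6. The brightest Il6st probe set, 1452843_at, read 1685, 2132 and 1679 in Erg-knockdown cells against 1744, 1606 and 1648 in Erg-restored cells. Only the Erg-knockdown array of mouse 279 stood apart, and the difference was 0.13 ± 0.13 (adjusted p = 0.842, limma). Probe set 1437303_at read 528, 154 and 201 in Erg-knockdown cells against 424, 149 and 129.8 in Erg-restored cells. It was higher in Erg-knockdown cells of every mouse, by 0.31, 0.049 and 0.58, and highest in mouse 278 in both populations, with 93.4% of its sum of squares between mice. The fit gave 0.31 ± 0.13 for it (adjusted p = 0.799, limma; 95% interval -0.066 to 0.69).

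The dim Il6st probe sets were not tested. 1460295_s_at read 123, 105 and 77.2 in Erg-knockdown cells against 99.1, 48.5 and 67.5 in Erg-restored cells. 1421239_at read 58.7, 68.4 and 79.7 in Erg-knockdown cells against 47.1, 58.2 and 67.4 in Erg-restored cells. Both were higher in Erg-knockdown cells of all 3 mice, so 3 of the 4 Il6st probe sets had that order, although their groups overlapped and their mice ranked differently. Of all probe sets tested, which leaves out the dim ones, 20.8% had it. The brightest Il6st probe set, 1452843_at, did not, with -0.049 in mouse 278. Il6ra probe set 1452416_at read 1104, 759.9 and 779 in Erg-knockdown cells against 993, 456 and 803 in Erg-restored cells. The Erg-restored array of mouse 279 lay lowest, and the difference was 0.27 ± 0.18 (adjusted p = 0.805, limma). The single mice gave 0.15, 0.72 and -0.045. Leaving that array out, with no term for the mouse, gave -0.041. The dim Il6ra probe set 1422270_a_at read 69.8, 41.8 and 39.8 in Erg-knockdown cells against 72.3, 43.0 and 35.4 in Erg-restored cells, and like 1452416_at it was brightest in mouse 278.

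The promoter windows of Il6st and Il6ra are shown to set their GGAA cores beside those of Csf3r and Il3ra.
Il6st, chr13:112463820-112464069, plus strand: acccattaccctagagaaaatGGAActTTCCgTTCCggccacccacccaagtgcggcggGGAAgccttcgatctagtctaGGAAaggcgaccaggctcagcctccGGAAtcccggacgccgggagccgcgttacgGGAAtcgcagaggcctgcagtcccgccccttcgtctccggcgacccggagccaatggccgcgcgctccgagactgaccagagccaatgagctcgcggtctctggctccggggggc
Il6ra, chr3:89913197-89913446, minus strand: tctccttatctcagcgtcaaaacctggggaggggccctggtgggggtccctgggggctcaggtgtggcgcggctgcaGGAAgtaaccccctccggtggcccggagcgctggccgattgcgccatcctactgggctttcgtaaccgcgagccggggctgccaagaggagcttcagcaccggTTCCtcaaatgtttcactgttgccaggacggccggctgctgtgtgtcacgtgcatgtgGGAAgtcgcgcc
The Il6st window held 7 GGAA cores and no GGAAGT. The Il6ra window held 3 GGAA cores and 2 GGAAGT, 173 and 12 bases before the start. Csf3r and Il3ra, which read lower in the Erg-knockdown cells, had 7 and 3 cores. Il6st and Il6ra, which read higher, also had 7 and 3. The windows of Csf1r, which also read lower, and of Csf2rb were not analysed here. A relation between the number of cores and the direction was not tested.

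**Figure D3:**
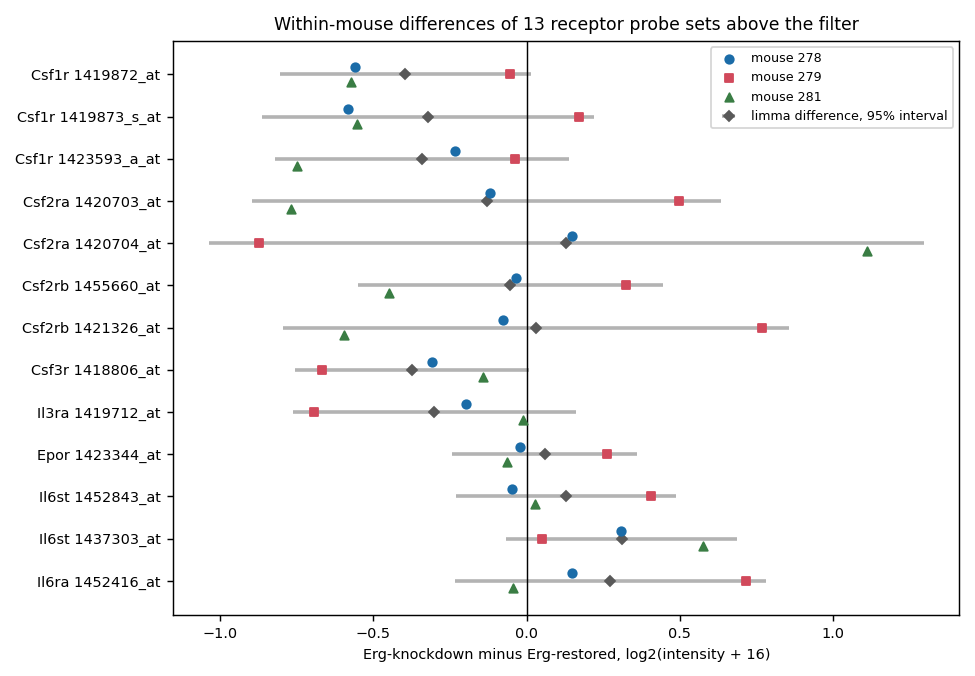
Erg-knockdown minus Erg-restored on the log2(intensity + 16) scale for the 13 receptor probe sets above the filter, with 1 coloured point per mouse and a diamond with its 95% interval for the limma fit. All intervals reach across 0; Csf1r, Csf3r and Il3ra lie on the left, and the mouse 279 points of Csf2rb and Csf2ra lie opposite to those of mouse 281.

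Over the 13 tested probe sets the direction depended on the mouse. Mouse 278 had 10 below 0 and a median of -0.077, mouse 279 had 5 below 0 and a median of 0.17, and mouse 281 had 10 below 0 and a median of -0.14. The median over all probe sets was 0.044, -0.039 and 0.052 in these mice, so the receptors lay on the other side of 0 from it in each mouse. This contrast is that of the values as deposited, and in the fit over all mice it depended on the scaling. After quantile normalization the fitted medians were -0.059 for the receptors and -0.015 over all probe sets. With arrays centred on the median they were -0.159 and -0.086, so both lay below 0. 4 of 13 were lower in all 3 mice, beside 10.4% of all probe sets, and these came from 3 genes, Csf1r with 2 probe sets, Csf3r and Il3ra. 1 of 13 was higher in all 3 mice, beside 20.8% overall. The other 8 had mixed signs.

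**Figure D4:**
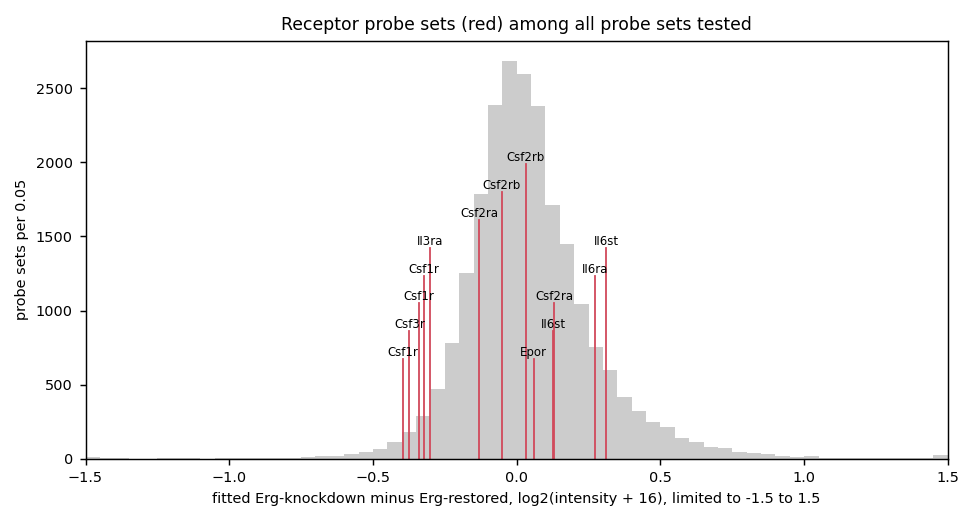
Histogram of the fitted Erg-knockdown minus Erg-restored differences of all 22519 probe sets tested, on the log2(intensity + 16) scale, with values beyond 1.5 drawn in the end bins; red lines of arbitrary height mark the 13 receptor probe sets. The receptors lie between -0.40 and 0.31, within the body of the histogram.

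Other cytokine receptors behaved no more uniformly. Of 38 listed genes 34 had a probe set and 23 were above the filter, with 12 above and 11 below 0, 0 at unadjusted p below 0.05 and a median of 0.021. Il1r1, an interleukin-1 receptor gene, read 1237, 928 and 819 in Erg-knockdown cells against 1005, 266 and 518 in Erg-restored cells, a difference of 0.89 ± 0.32. Flt3, the receptor tyrosine kinase of early lymphoid-primed progenitors, differed by 0.27 ± 0.12, and Kit, the stem cell factor receptor, by 0.22 ± 0.11 (adjusted p = 0.799 for these receptors, limma). These 3 were the only ones of the 23 that were higher in Erg-knockdown cells of every mouse, beside 20.8% of all probe sets. Another 2 of the 23 were lower in every mouse, beside 10.4% of all probe sets. Il7r, the interleukin-7 receptor gene of lymphoid progenitors, differed by 0.70 ± 0.40 and gave 0.39, 1.77 and -0.057 in the single mice (adjusted p = 0.799, limma); its dimmer probe set, below the filter, gave -0.30, 1.14 and 0.21.

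Ligand genes were mostly below the filter. Of 19 listed ligand genes 16 had a probe set and 4 were above the filter. Oncostatin M (Osm), which signals through gp130, differed by -0.073 ± 0.12, and interleukin-15 (Il15), which signals through the gamma chain, by 0.059 ± 0.10 (adjusted p = 0.892 and 0.895, limma). The other 2, named because the count is small, were Il7 at 0.056 ± 0.10 and Csf1, the ligand of Csf1r, at -0.0012 ± 0.11.

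Among 20 tested genes of receptor-proximal signalling, 11 were above and 9 below 0, with a median of 0.011. There was 1 in each direction at unadjusted p below 0.05, beside 6.07% of all probe sets in either direction. Fes, a cytoplasmic tyrosine kinase of myeloid cells, read 1226, 1433 and 1161 in Erg-knockdown cells against 1516, 1639 and 1585 in Erg-restored cells, so its groups did not overlap, as for 4.36% of all probe sets in that direction; the difference was -0.31 ± 0.095. Cbl, the ubiquitin ligase that takes activated receptors such as Csf1r and Kit out of use, read 2541, 2631 and 2519.5 in Erg-knockdown cells against 2106, 2023 and 2272 in Erg-restored cells, also without overlap, as for 9.63% of all probe sets in that direction, a difference of 0.26 ± 0.092 (adjusted p = 0.799 for Fes and Cbl, limma). Of 16 tested response genes of STATs and receptors 8 were above and 8 below 0, with a median of -0.0098. Socs2, a feedback inhibitor of JAK-STAT signalling, differed by 0.42 ± 0.16 and the immediate early gene Egr1 by 0.35 ± 0.16 (adjusted p = 0.799 for both, limma).

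Marker lists of other cells gave the setting for these values. As background, 45.1% of all fitted differences were below 0 and 6.07% of probe sets had an unadjusted p below 0.05 in either direction. Of the latter, 78.3% were higher in Erg-knockdown cells. B-cell and plasma-cell markers were the list farthest from 0, with a median of 0.93 over 10 tested genes. Of these, 8 were above 0, and 6 of them had an unadjusted p below 0.05 (limma). The smallest unadjusted p were those of the plasma cell genes Mzb1 (1.44 ± 0.23) and Sdc1 (0.94 ± 0.17). Among the 6, Irf4 had an Erg-restored mean of 85.2, below the filter value. Irf4 entered the fit through its Erg-knockdown mean of 582. The summed intensity of the list was 23846 to 33934 in Erg-knockdown cells and 18053 to 18544 in Erg-restored cells. T-cell and NK-cell markers had 5 of 7 above 0 and a median of 0.055, with medians of 0.21, 0.090 and -0.14 in the 3 mice. The smallest unadjusted p were those of the T-lineage transcription factor genes Bcl11b at 0.83 ± 0.22 and Gata3 at 0.26 ± 0.085. Dendritic cell markers had 4 of 9 above 0 and a median of -0.069; the smallest unadjusted p were those of the dendritic transcription factor gene Zbtb46 at 0.66 ± 0.17 and the chemokine receptor gene Ccr9 at 1.12 ± 0.41. LSK and stem cell markers had 7 of 10 above 0, with Mecom, a transcription factor gene of stem cells, at 0.21 ± 0.085. Mature neutrophil markers had 7 of 8 above 0, with the granule protein genes Ngp at 1.04 ± 0.67 and Ltf at 0.99 ± 0.91, and medians of -0.089, 2.48 and -0.52 in the 3 mice. Granulocyte and monocyte markers had 15 of 16 below 0, but 0 were lower in all 3 mice. Their medians were -0.069, 0.41 and -0.60 in mice 278, 279 and 281. Spi1, the gene of the ETS factor PU.1, differed by -0.19 ± 0.15 and Cd14 by -0.72 ± 0.78. Cd14 gave -0.31, 0.91 and -2.77 in the single mice and read 28.6 on the Erg-knockdown array of mouse 281. No gene in these lists passed an adjusted p of 0.05 (limma), at which 0 of 22519 probe sets passed in all.

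The genes whose log2 values ran most like each receptor over the 6 arrays were found among 10824 other genes, as a description. For Csf1r these were Taf1d, Nkx1-2 and Skp2 (Pearson r = 0.991, 0.975 and 0.968), and 20 genes exceeded 0.9. For Csf3r they were Washc3, Gins2 and Psma4 (0.998, 0.992 and 0.990), and for Il3ra they were Pidd1, Mrrf and Ddx52 (0.994, 0.992 and 0.992). For Csf2ra they were Tcn2, Mogat2 and Tmem119 (0.995, 0.994 and 0.993), and for Csf2rb they were Msmo1, Sla and the chemokine receptor gene Ccr2 (0.997, 0.992 and 0.991). For Epor they were Cenpv, C1qtnf12 and Aldh1a7 (0.996, 0.993 and 0.993). Il6ra was followed by Derl2, Dock10 and Lmo4 (0.9996, 0.994 and 0.989) and Il6st by Mgst3, Ahi1 and Ube2e3 (0.971, 0.964 and 0.964). Between 20 and 392 genes exceeded 0.9 for a receptor over these 6 arrays, which share mice and sample quality.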

How the data were processed

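Gene expression was measured in YFP-negative and YFP-positive LSK cells of 3 mice on 6 Affymetrix arrays; RNA was amplified and labelled with a NuGEN kit, per the labels' protocols. The authors deposited 1 linear intensity per probe set and array; the summary, background and normalization methods are not given in the sources used here. Precision is limited by the number of arrays. After removal of 64 controls from 45101 probe sets, the platform's probe annotation, which can be old, gave a single symbol for 34945, several for 932 and none for 9160; the gene identifiers of all 16 receptor probe sets matched the mouse gene table and no symbol changed.

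Intensities were taken to log2(value + 16). The 22519 probe sets with a mean at or above the median of all means (149) entered a linear model in limma (version 3.58.1, R version 4.3.3) with eBayes, the mouse as a fixed block and 2 residual degrees of freedom. The Benjamini-Hochberg adjustment covered all of them. Single receptors also had an exact two-sided sign-flip test over mice. Gene lists were read at each gene's brightest named probe set and described by counts and medians only. The model code was first tested on simulated data.

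The arrays are paired because both populations came from the same animal. Deviations from the group means correlated at 0.27, -0.077 and -0.21 within mice 278, 279 and 281. Between arrays of different mice and populations they correlated at -0.25 to 0.31. The lowest was between Erg-knockdown of mouse 278 and Erg-restored of mouse 279. The highest was between Erg-restored of mouse 279 and Erg-knockdown of mouse 281. The fit with a random replicate block gave a consensus correlation of 0.0052 within a mouse. The labels do not give separate cultures or batches.

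The receptors, the lists and the rule for named genes were chosen with earlier results of these data known. The rule names every probe set of the receptors and of Erg and Csf2rb2; Kit, Ly6a, Flt3 and Il7r, with an item that is not reported here; of each list the 2 genes with the smallest unadjusted p and any past the threshold; and the 3 genes most correlated with each receptor. Alternatives covered the block, scaling, filter, added value, choice of probe set, spread estimate, array weights and left-out arrays. Promoter sequences are RefSeq's (GRCm38.p6). Figures were drawn with matplotlib 3.10.9.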

Additional observations from a re-analysis of the deposited data

How the results depend on the processing

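No receptor probe set passed an adjusted p of 0.05 in limma under any of the 16 alternatives; the closest came with array weights, whose estimate stopped before it converged, where the smallest adjusted p was 0.0703 (Csf1r). Signs held for 183 of 198 recomputed values, and for 6 of 13 probe sets (the 3 of Csf1r, Csf3r, Il3ra and Il6st 1437303_at) under every alternative. Csf2rb 1421326_at turned to -0.021 after quantile normalization, -0.076 with arrays centred on the median, -0.083 with array weights and -0.34 with 5 arrays; Epor turned to -0.036, -0.048 and -0.012 under the first 3 of these, Il6st 1452843_at to -0.020 with array weights and Il6ra to -0.041 with 5 arrays. These 5 arrays leave out the Erg-restored array of mouse 279 and the mouse term. Leaving out 1 mouse turned Csf2rb 1421326_at to -0.34, Epor to -0.043 and Il6st 1452843_at to -0.011 (mouse 279), and Csf2ra to 0.19 and -0.36 and Csf2rb 1455660_at to 0.15 (mouse 281). Over all left-out mice, Csf2rb 1421326_at ranged from -0.34 to 0.35, Csf2rb 1455660_at from -0.24 to 0.15, Csf2ra 1420703_at from -0.44 to 0.19 and 1420704_at from -0.36 to 0.63, Epor from -0.043 to 0.12 and Il6st 1452843_at from -0.011 to 0.22. Without changing sign, Il6ra 1452416_at ranged from 0.052 (without mouse 279) to 0.43 (without mouse 281) and Il6st 1437303_at from 0.18 (without mouse 281) to 0.44 (without mouse 279).

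The 0 receptor probe sets at unadjusted p below 0.05 became 1 with no replicate block, with a random replicate block, after quantile normalization and with an added value of 64 (Csf3r each time); 2 in the upper 30% of probe sets, with 1 probe set a gene, with trend and robust settings and with 5 arrays; 3 with centred arrays; and 5 with array weights. Without 1 mouse it was 0 to 3. The blocking thus moved Csf3r across that unadjusted threshold and changed no call at the adjusted one. The median over the receptor probe sets, -0.053, ranged from -0.23 without mouse 279 to 0.12 without mouse 281. Of all probe sets, 1366 reached unadjusted p below 0.05, but 2705 with no filter, 822 in the upper 30%, 630 with 1 probe set a gene, 6397 with array weights and 575 to 1797 without 1 mouse; 1 passed the adjusted threshold with array weights and 1 with 5 arrays. Of the 1366, 78.3% were higher in Erg-knockdown cells, against 49.7% of the 1404 after quantile normalization and 35.6% of the 1540 with centred arrays. Centring moved the median of all probe sets to -0.086 from 0.020. The causes were not tested.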
